A study of Mus musculus with 16 samples.

Results

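The genes described here copy the genome in S phase and supply its building blocks: the replicative helicase and its activators, the origin licensing factors, the sliding clamp and its loader, the replicative polymerases with primase and the single-strand binding protein RPA, the enzymes of deoxynucleotide supply, and a few genes for joining, repair and chromatin copying, with the transcription factor E2f1. They were chosen by name from a list of 41 symbols, and 40 of them had a probe set with that single symbol among the 18194 genes measured. Chaf1a was not analysed here. Where a gene had several probe sets, the brightest by mean was used.

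RNA was extracted from 16 pieces of mouse liver and measured on expression arrays, with 1 array per piece. All mice were male C3H/HeJ and, per the design text, received 1 injection of the liver carcinogen diethylnitrosamine (DEN), at 10 or 90 µg per g body weight and at 2 or 6 weeks of age. Which dose and age belongs to which sample was not given in the sources used here. The first arm holds 7 Ctnnb1-mutated tumours (Ctnnb1 encodes beta-catenin) with 3 non-tumour livers as their controls, called phenobarbital controls and numbered 4, 5 and 6. Both of these groups received phenobarbital, a liver tumour promoter, at 0.05% for 27 weeks per the sample labels, whereas other label texts describe a course of 28 days in drinking water or a diet over 28 to 36 weeks. The second arm holds 3 tumours mutated in Ha-ras, which encodes a small GTPase upstream of the ERK kinases, with 3 non-tumour livers as untreated controls, and none of these received phenobarbital. Untreated here means without phenobarbital, since DEN is described for all mice. Mutation and phenobarbital go together across the tumours, so that their parts cannot be told apart. The labels do not say that the samples came from separate animals, and p-values measure the spread between these samples alone. Because the tissue was measured in bulk, a change in the share of cells in S phase and a change in RNA per cell cannot be told apart.

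Before S phase the origin recognition complex, with Cdc6 and Cdt1, loads the Mcm2 to Mcm7 ring onto DNA, and Cdc45 and the GINS complex then turn the ring into an active helicase. Primase and polymerase alpha start each strand, replication factor C loads the PCNA clamp, and polymerases delta and epsilon extend the strand with deoxynucleotides that ribonucleotide reductase, thymidylate synthase and thymidine kinase help to supply. Many of these genes are known targets of E2F factors, and most hepatocytes of the adult liver are out of the cell cycle.

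RefSeq promoters of GRCm38.p6, each 250 bases before to 50 bases after a start, were at hand for 35 of the 41 listed genes. The letters TTTGGCGC, TTTCCCGC, TTTGCCGC or TTTCGCGC, searched on both strands, were found in 744 of 32851 promoters (2.26%) and in 12 of the 41 promoters of listed genes (29.3%). Stretches upstream of the start are printed for 4 genes that rose in Ctnnb1 tumours and hold such letters, and for Orc1, which holds them and did not pass. Pcna, which rose, and Mcm10, which fell, are shown as genes without these letters in the window. The stretches are chr1:128359706-128359845 on the minus strand for Mcm6, chr11:98907983-98908150 on the plus strand for Cdc6, chr5:151651209-151651328 on the minus strand for Rfc3, chr17:56304098-56304312 on the plus strand for Uhrf1, chr4:108579334-108579453 on the plus strand for Orc1, chr2:132253181-132253300 on the minus strand for Pcna and chr2:5012792-5012911 on the minus strand for Mcm10. Capitals mark the letters searched on either strand, read 5′ to 3′ towards the start.
Mcm6: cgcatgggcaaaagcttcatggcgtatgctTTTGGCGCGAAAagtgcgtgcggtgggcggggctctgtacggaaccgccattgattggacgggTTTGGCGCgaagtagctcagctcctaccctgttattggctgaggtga
Cdc6: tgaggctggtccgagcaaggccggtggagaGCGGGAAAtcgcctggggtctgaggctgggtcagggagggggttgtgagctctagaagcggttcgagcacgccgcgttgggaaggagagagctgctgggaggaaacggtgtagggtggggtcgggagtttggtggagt
Rfc3: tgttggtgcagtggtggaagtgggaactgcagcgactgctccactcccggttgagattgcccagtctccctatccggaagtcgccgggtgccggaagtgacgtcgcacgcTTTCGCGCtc
Uhrf1: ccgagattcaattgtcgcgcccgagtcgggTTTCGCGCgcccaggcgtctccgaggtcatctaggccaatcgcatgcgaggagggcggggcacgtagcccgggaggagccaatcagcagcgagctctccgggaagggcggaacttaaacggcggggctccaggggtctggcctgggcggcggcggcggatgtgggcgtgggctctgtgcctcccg
Orc1: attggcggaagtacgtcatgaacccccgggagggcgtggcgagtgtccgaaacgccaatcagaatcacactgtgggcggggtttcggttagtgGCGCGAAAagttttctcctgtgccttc
Pcna: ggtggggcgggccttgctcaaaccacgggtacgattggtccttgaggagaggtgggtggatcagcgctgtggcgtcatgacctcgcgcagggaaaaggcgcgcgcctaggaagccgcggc
Mcm10: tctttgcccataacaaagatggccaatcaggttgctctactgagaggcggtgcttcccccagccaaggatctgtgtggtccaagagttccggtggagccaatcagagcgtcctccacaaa
Mcm6 held 3 matches upstream, at positions -110, -106 and -47 from the start, and the first 2 overlap in a single run of capitals. A match is a run of letters and shows no binding.

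Across the 16 arrays the median of all probe sets lay between 5.03 and 5.10, and arrays of a group correlated at 0.976 to 0.993. The hepatocyte markers were high in every array, with a mean between 13.08 and 14.01. Phenobarbital control 6 stood apart. For Gapdh, the array's probes near the 3′ end exceeded those near the 5′ end by 2.70 on the log2 scale, a sign of RNA quality, against -0.15 to 0.32 in the other arrays. Its Mki67 value, a proliferation marker, was 7.18 against 5.69 and 5.63 in phenobarbital controls 4 and 5. Of the 40 genes, it held the highest value of all arrays for 6 and the lowest for 9. Results against the phenobarbital controls are therefore given with and without it where it matters.

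In Ctnnb1 tumours, 13 of the 40 genes rose and 1 fell against phenobarbital controls, at a limma adjusted p under 0.05 (Benjamini-Hochberg over all genes). Over all genes 6.07% were called higher and 5.97% lower. The genes that rose came from the helicase (Mcm2, Mcm5, Mcm6, Gins1, Gins2), licensing (Cdc6, Cdt1), the clamp and its loader (Pcna, Rfc3, Rfc4), primase (Prim1, Prim2) and chromatin copying (Uhrf1), with fold changes between 1.44 and 2.59, and Mcm10 fell. In Ha-ras tumours against untreated controls 3 rose (Mcm2, Lig1, Chaf1b) and 3 fell (Mcm10, Tk1, Fen1), where 7.21% of all genes were called higher and 6.33% lower. Mcm2 and Mcm10 were called in the same direction in both tumour kinds, and 22 of the 40 were called in neither. The median log2 fold change of the 40 was 0.27 in Ctnnb1 tumours and 0.06 in Ha-ras tumours, against -0.03 and -0.04 over all genes. All Ctnnb1 tumours lay above all phenobarbital controls for 9 of the 40 genes and below them for none, where 5.96% and 6.64% of all genes did so. All Ha-ras tumours lay above all untreated controls for 11 and below them for 7, against 16.3% and 18.5% of all genes.

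The Ctnnb1 count depended on single arrays, tumours as well as phenobarbital controls. It was 7 without Ctnnb1 tumour 1 and 8 without tumour 4 or without tumour 6. Without phenobarbital control 6 it was 9, all higher, and 7 of the 14 genes were kept. With this difference between the Gapdh ends added to the fit it was 6 (4 kept), and it was 7 when only the arrays of both groups were fitted. As the Gapdh difference stands out in phenobarbital control 6 alone, its fit is no separate check on leaving that array out. Over all genes the count fell from 2191 to 836 in that fit. Cdc6, Gins2, Mcm6 and Rfc4 kept their call when any 1 of the 10 arrays was left out. With the Gapdh difference in the fit Mcm6 passed, but Cdc6 (1.07, adjusted p = 0.0629), Gins2 (0.79, adjusted p = 0.108) and Rfc4 (0.52, adjusted p = 0.0668) did not. Gins2 did not pass either when phenobarbital control 6 and Ctnnb1 tumours 6 and 7 were left out together (0.66, adjusted p = 0.0545). Rfc4 also lost its call when same-numbered arrays were fitted as blocks (1.03, adjusted p = 0.0789).

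**Figure D1:**
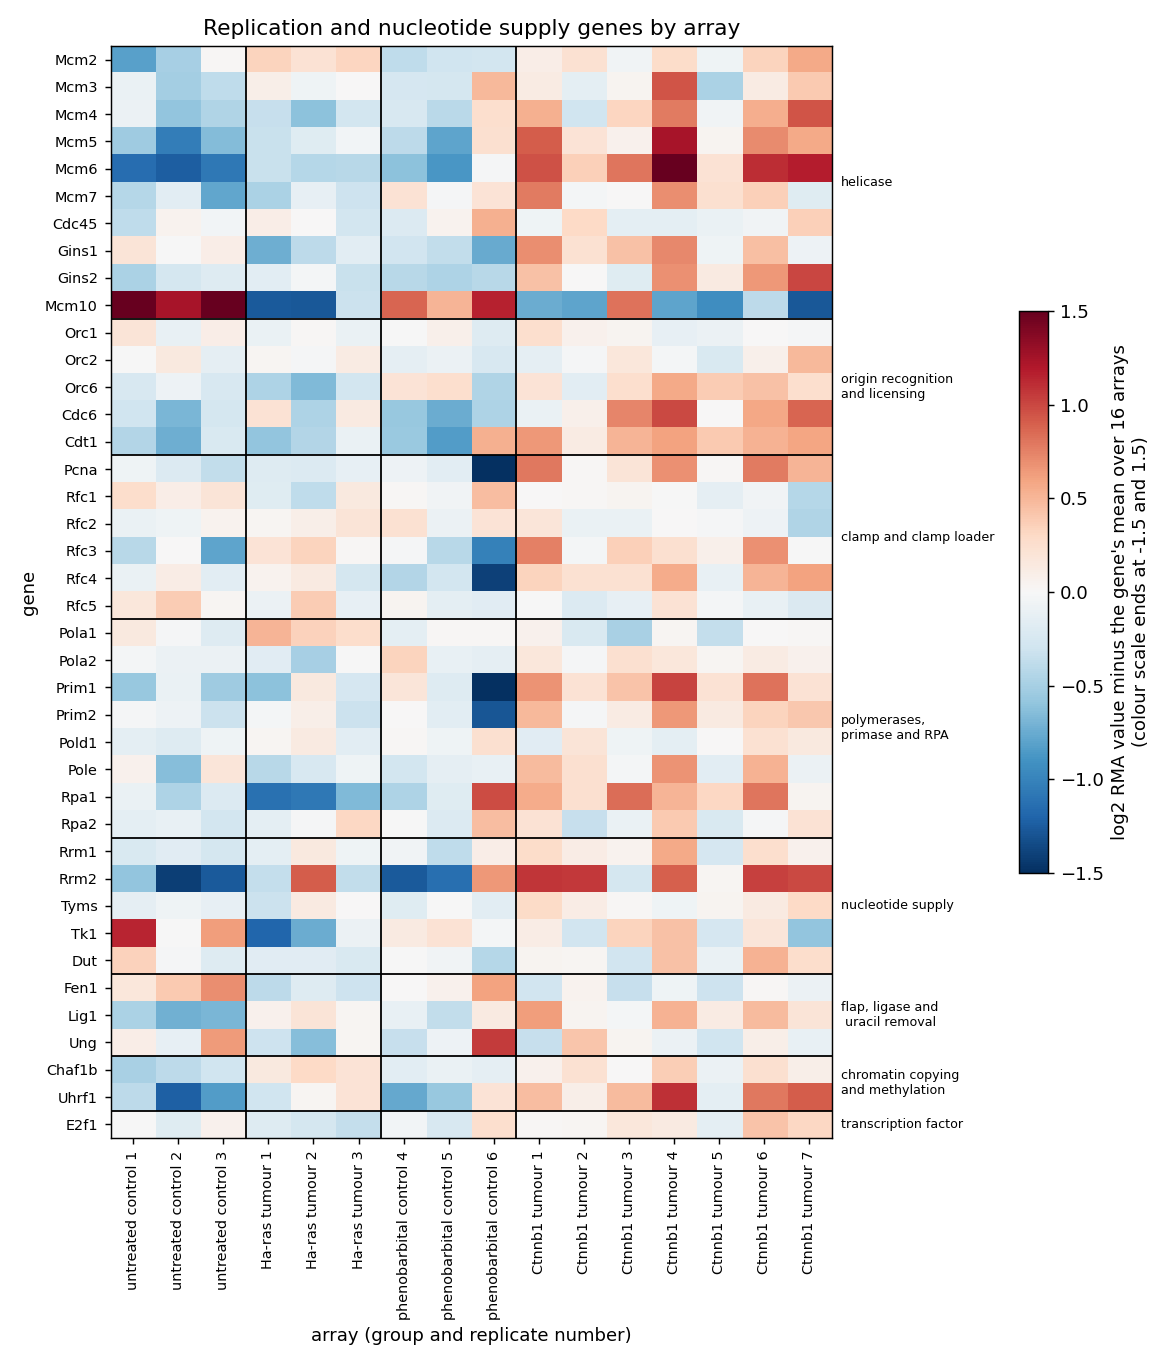
Each row is 1 of the 40 genes, ordered by role, and each column 1 of the 16 arrays. Colour gives the log2 RMA value minus the gene's mean over all arrays, with the scale ending at -1.5 and 1.5. Mcm5, Mcm6, Pcna and Prim1 are above their mean, towards red, in every Ctnnb1 tumour, though barely so for Pcna in some. The phenobarbital control 6 column differs from those of controls 4 and 5.

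Of the 10 helicase genes, 5 rose and 1 fell in Ctnnb1 tumours. Mcm6, a subunit of the ring, showed the largest rise of the 40 genes with all arrays, whereas without phenobarbital control 6 Rrm2 rose by 1.88 and Mcm6 by 1.62. Its log2 value was between 7.91 and 9.22 in the 7 Ctnnb1 tumours, with a median of 8.66, and 7.09, 6.83 and 7.68 in phenobarbital controls 4, 5 and 6. It was 7.37, 7.28 and 7.28 in the Ha-ras tumours and 6.56, 6.47 and 6.63 in the untreated controls. Every Ctnnb1 tumour lay above every other array. Mcm6 rose by 1.38 ± 0.23 on the log2 scale (SE of the fit), or 2.59-fold, with an adjusted p of 0.00166. In Ha-ras tumours the groups did not overlap either, but the difference of 0.76 ± 0.28 did not pass (adjusted p = 0.0871). It passed with only the arrays of both groups fitted (adjusted p = 0.00294) and with arrays weighted by their quality (adjusted p = 0.0455). With same-numbered arrays fitted as blocks it passed as well (adjusted p = 0.0441), and in the other alternatives it did not.

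Mcm2, another subunit of the ring, was between 8.12 and 8.74 in Ctnnb1 tumours, with a median of 8.41, and 7.79, 7.87 and 7.90 in their controls. It was 8.52, 8.39 and 8.50 in Ha-ras tumours against 7.37, 7.68 and 8.20 in untreated controls. Tumours lay above their controls without overlap in both pairs, and the tumour kinds differed by -0.09 (adjusted p = 0.786). The rise was 0.52 ± 0.16 in Ctnnb1 tumours (1.44-fold, adjusted p = 0.0399) and 0.72 ± 0.18 in Ha-ras tumours (1.65-fold, adjusted p = 0.0156). The Ctnnb1 call ended when any of Ctnnb1 tumours 1, 2, 4, 6 or 7 or any phenobarbital control was left out, with adjusted p up to 0.110. The Ha-ras call ended without Ha-ras tumour 1 or untreated control 1 or 2, with adjusted p up to 0.0881. A second probe set of Mcm2 rose in both, by 1.18 and 1.76.

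Mcm5 was between 7.04 and 8.23 in Ctnnb1 tumours, with a median of 7.56, against 6.60, 6.21 and 7.24 in their controls. Only phenobarbital control 6 reached into the range of the tumours. Mcm5 rose by 0.85 ± 0.25 (1.80-fold, adjusted p = 0.0386), and by 1.12 without that control. Leaving out any of Ctnnb1 tumours 1, 4, 6 or 7 or phenobarbital control 4 or 5 ended the call, with adjusted p up to 0.167. Mcm3, Mcm4 and Mcm7, the other ring subunits, did not pass in either tumour kind, with differences of 0.15, 0.53 and 0.13 in Ctnnb1 tumours and 0.34, -0.04 and 0.15 in Ha-ras tumours. Cdc45, which joins the ring when it is activated, differed by -0.11 and 0.06.

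Gins1 and Gins2 encode subunits of the GINS complex. Gins1 was between 6.59 and 7.39 in Ctnnb1 tumours, with a median of 7.10, against 6.38, 6.30 and 5.91 in their controls. In Ha-ras tumours it was 5.92, 6.27 and 6.50, below the untreated controls at 6.86, 6.66 and 6.76. Gins1 was thus above its controls in every Ctnnb1 tumour and below them in every Ha-ras tumour. It rose by 0.81 ± 0.18 in Ctnnb1 tumours (1.75-fold, adjusted p = 0.00944), and differed by -0.52 ± 0.22 in Ha-ras tumours without passing (adjusted p = 0.13). The Ctnnb1 call ended without phenobarbital control 6 (0.67, adjusted p = 0.0637). Gins2 was between 6.15 and 7.33 in Ctnnb1 tumours, with a median of 6.76, against 5.91, 5.86 and 5.91. It rose by 0.82 ± 0.20 (1.77-fold, adjusted p = 0.0139) and differed by 0.13 in Ha-ras tumours.

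Mcm10, a scaffold protein needed to fire origins, was the gene of the 40 with the largest difference. Its values were 8.27 to 10.35 in Ctnnb1 tumours, with a median of 8.75, and 10.41, 10.05 and 10.70 in phenobarbital controls. In Ha-ras tumours they were 8.29, 8.26 and 9.21, and in untreated controls 11.24, 10.78 and 11.04. Both control groups were high, both tumour groups were low, and Ctnnb1 tumour 3 alone overlapped with its controls. Mcm10 fell by 1.43 ± 0.34 in Ctnnb1 tumours (adjusted p = 0.0123) and fell by 2.43 ± 0.40 in Ha-ras tumours (adjusted p = 0.000631). The Ctnnb1 call ended without phenobarbital control 6 (-1.28, adjusted p = 0.0683), whereas the Ha-ras call held with any of its 6 arrays left out. One other probe set of the gene also fell in both, and the dimmest, with a mean of 3.30, differed by 0.05 and -0.23.

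**Figure D2:**
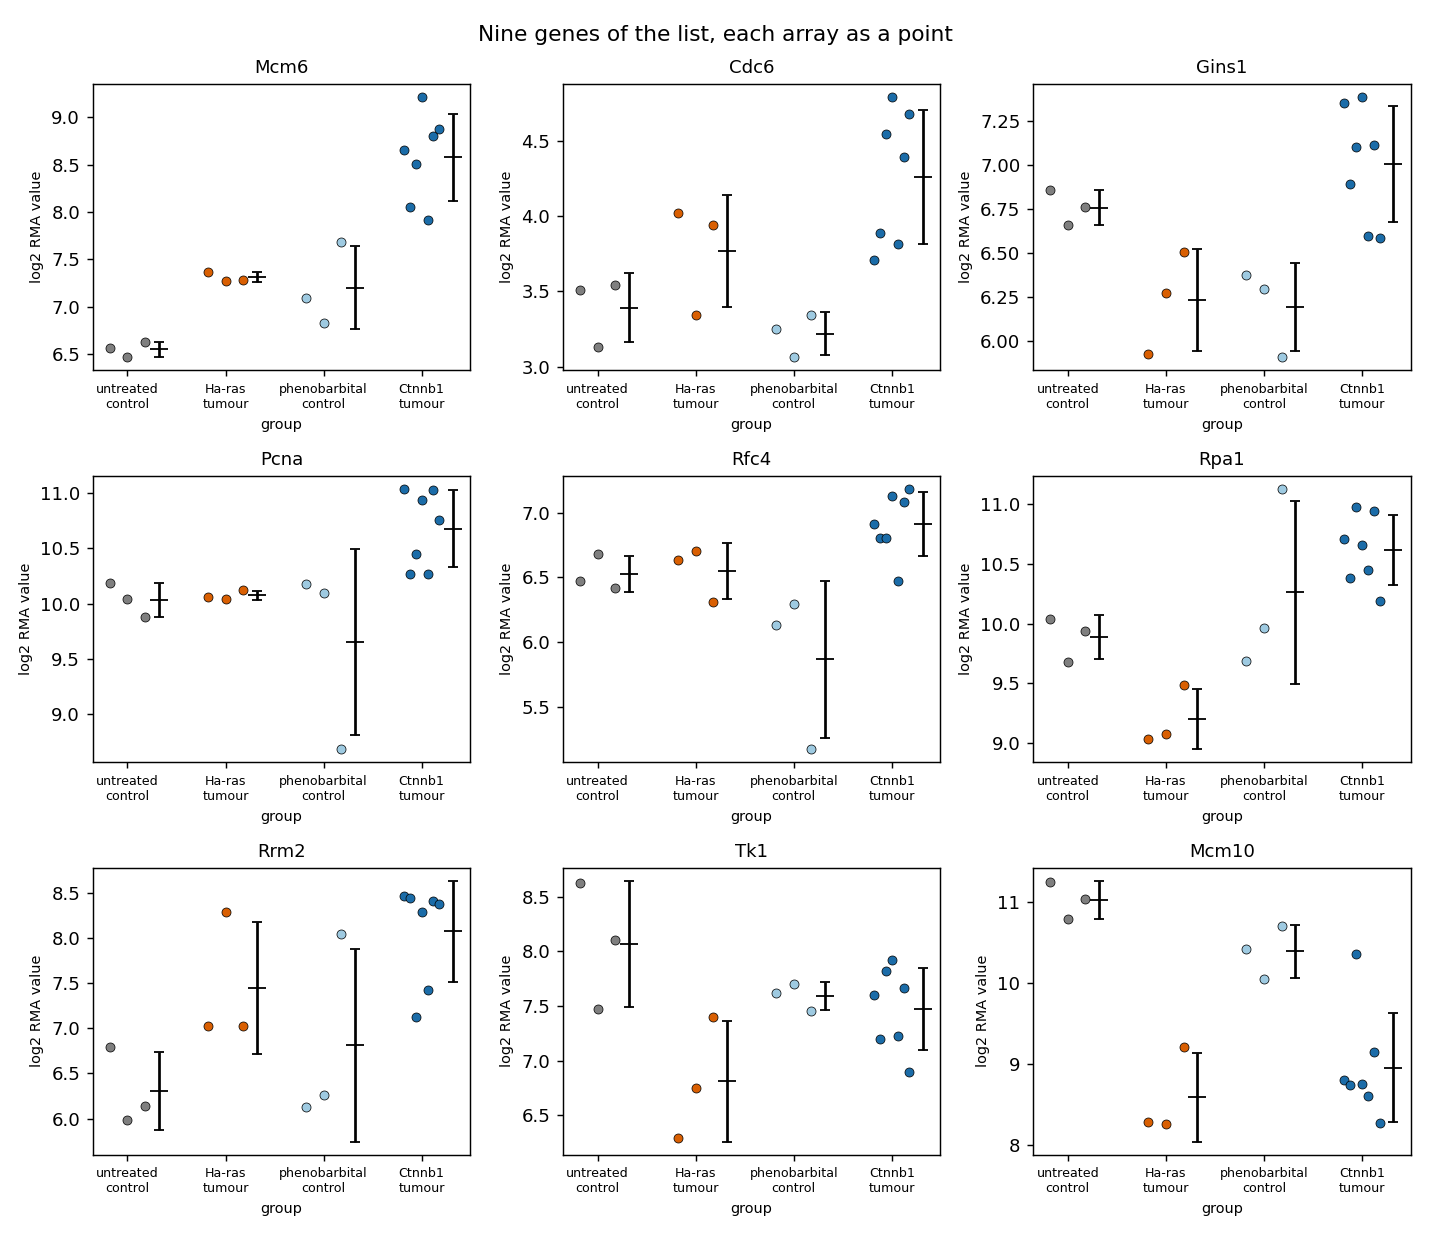
Each panel plots 1 of 9 genes, with the log2 RMA value on the vertical axis and the 4 groups on the horizontal axis. Each point is an array, and bars give the mean and SD of the group. Mcm6 separates the Ctnnb1 tumours from all others, Gins1 lies on opposite sides of its controls in the 2 tumour kinds, and Mcm10 is low in both.

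Of the 5 origin and licensing genes, 2 rose in Ctnnb1 tumours and none passed in Ha-ras tumours (0 also at an unadjusted p under 0.05). Cdc6, the ATPase that brings the ring to the origin, was between 3.71 and 4.80 in Ctnnb1 tumours, with a median of 4.39, against 3.25, 3.06 and 3.34. It was 4.02, 3.34 and 3.94 in Ha-ras tumours and 3.51, 3.13 and 3.55 in untreated controls. The Ctnnb1 tumours lay above their controls without overlap, at a level below the median of all probe sets. Cdc6 rose by 1.04 ± 0.23 (2.06-fold, adjusted p = 0.0087).

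Cdt1, the partner of Cdc6 in loading, was between 8.21 and 8.73 in Ctnnb1 tumours, with a median of 8.61, against 7.53, 7.25 and 8.62 in their controls. Only phenobarbital control 6 lay among the tumours. Cdt1 rose by 0.77 ± 0.22 (1.70-fold, adjusted p = 0.0355). Without phenobarbital control 6 the rise was 1.18 (adjusted p = 0.000874), and without control 5 it was 0.49 and did not pass (adjusted p = 0.177). The call also ended without Ctnnb1 tumour 1, 3, 4, 6 or 7 or control 4, with adjusted p up to 0.135. Orc1, Orc2 and Orc6, subunits of the origin recognition complex, differed by 0.06, 0.20 and 0.27 in Ctnnb1 tumours and did not pass.

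Of the 6 genes of the clamp and its loader, 3 rose in Ctnnb1 tumours and none passed in Ha-ras tumours, where 1 had an unadjusted p under 0.05 and the differences lay between -0.32 and 0.59. Pcna, the clamp itself, was between 10.26 and 11.04 in Ctnnb1 tumours, with a median of 10.76, against 10.17, 10.10 and 8.68 in phenobarbital controls. It was 10.06, 10.04 and 10.12 in Ha-ras tumours and 10.18, 10.05 and 9.88 in untreated controls. Every Ctnnb1 tumour was above all the other arrays, and phenobarbital control 6 was far below them. Pcna rose by 1.03 ± 0.26 (2.04-fold, adjusted p = 0.0201), but by 0.54 without that control, where it did not pass (adjusted p = 0.118). In Ha-ras tumours the difference was 0.04.

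Rfc4 and Rfc3 are subunits of the loader. Rfc4 was between 6.47 and 7.18 in Ctnnb1 tumours, with a median of 6.91, against 6.13, 6.30 and 5.17 in their controls, and between 6.31 and 6.71 in all Ha-ras tumours and untreated controls. The tumours were above their own controls without overlap. Rfc4 rose by 1.05 ± 0.20 (2.07-fold, adjusted p = 0.00397), and by 0.70 without phenobarbital control 6 (adjusted p = 0.0198). Rfc3 rose by 0.78 ± 0.22 (1.72-fold, adjusted p = 0.0315), with values of 6.67 to 7.45 against 6.68, 6.27 and 5.68. Its call ended without phenobarbital control 6 (0.52, adjusted p = 0.206), without control 5, and without Ctnnb1 tumour 1 or 6. Rfc1, Rfc2 and Rfc5 differed by -0.22, -0.19 and 0.02 and did not pass.

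Of the 8 genes of polymerases, primase and RPA, the primase subunits Prim1 and Prim2 rose in Ctnnb1 tumours, and none passed in Ha-ras tumours (2 at an unadjusted p under 0.05). Prim1 was between 7.11 and 7.92 in the tumours, with a median of 7.33, against 7.07, 6.70 and 5.25 in phenobarbital controls. Prim2 was between 6.19 and 6.86, with a median of 6.54, against 6.21, 6.04 and 4.93. For both genes phenobarbital control 6 was the lowest of all 16 arrays. Prim1 rose by 1.07 ± 0.31 (2.10-fold, adjusted p = 0.0324) and Prim2 by 0.78 ± 0.22 (1.72-fold, adjusted p = 0.0297). Without that control the differences were 0.52 and 0.38, and neither passed (adjusted p = 0.218 and 0.185). Leaving out Ctnnb1 tumour 1 or 4 ended both calls as well, and leaving out tumour 6 that of Prim1, with adjusted p of at most 0.0567. In Ha-ras tumours the differences were 0.16 and 0.05.

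Rpa1, the large subunit of RPA, was between 10.19 and 10.98 in Ctnnb1 tumours, with a median of 10.66, against 9.69, 9.96 and 11.13 in their controls. It was 9.03, 9.07 and 9.48 in Ha-ras tumours and 10.04, 9.68 and 9.94 in untreated controls. Phenobarbital control 6 was the highest of all arrays, and the Ha-ras tumours were the 3 lowest. Neither difference passed, at 0.36 ± 0.25 and -0.69 ± 0.29, whereas without phenobarbital control 6 Rpa1 rose by 0.79 in Ctnnb1 tumours (adjusted p = 0.0231). The fall in Ha-ras tumours passed with only the arrays of both groups fitted (adjusted p = 0.028). It also passed with arrays weighted by their quality (-0.77, adjusted p = 0.0118) and with the Gapdh difference in the fit (-0.63, adjusted p = 0.0453). Pola1 and Pola2 of polymerase alpha, Pold1 and Pole, the catalytic subunits of polymerases delta and epsilon, and Rpa2 differed by -0.10 to 0.40 in Ctnnb1 tumours and did not pass.

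None of the 5 genes of nucleotide supply passed in Ctnnb1 tumours (2 at an unadjusted p under 0.05), and 1 fell in Ha-ras tumours. Rrm2, the regulated subunit of ribonucleotide reductase, was between 7.13 and 8.46 in Ctnnb1 tumours, with a median of 8.38, against 6.13, 6.26 and 8.04 in phenobarbital controls. It was 7.03, 8.30 and 7.02 in Ha-ras tumours against 6.80, 5.98 and 6.13. Apart from phenobarbital control 6, every tumour of either kind lay above every control. The differences were 1.26 ± 0.42 (adjusted p = 0.0598) and 1.15 ± 0.49 (adjusted p = 0.151), and without phenobarbital control 6 Rrm2 rose by 1.88 (adjusted p = 0.00982). Both of its other probe sets passed in Ctnnb1 tumours, with rises of 1.63 and 1.42.

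Tk1, the thymidine kinase of the salvage route, was 6.29, 6.74 and 7.39 in Ha-ras tumours against 8.62, 7.47 and 8.11 in untreated controls. It was between 6.89 and 7.92 in Ctnnb1 tumours, with a median of 7.60, against 7.62, 7.70 and 7.45. The Ha-ras groups did not overlap, and the Ctnnb1 tumours spread on both sides of their controls. Tk1 fell by 1.26 ± 0.31 in Ha-ras tumours (adjusted p = 0.013) and differed by -0.11 in Ctnnb1 tumours. The call ended without Ha-ras tumour 1 or untreated control 1, with adjusted p up to 0.0741. Rrm1, the large reductase subunit, Dut, which removes dUTP, and Tyms, thymidylate synthase, differed by 0.26, 0.29 and 0.23 in Ctnnb1 tumours. The values of Tyms were between 2.79 and 3.41 on all arrays, below the median of all probe sets.

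Among the genes of flap removal, ligation and uracil removal, Lig1 rose and Fen1 fell in Ha-ras tumours, and none passed in Ctnnb1 tumours (2 at an unadjusted p under 0.05). Lig1, the ligase that joins Okazaki fragments, was 6.82, 6.95 and 6.79 in Ha-ras tumours against 6.29, 6.04 and 6.07 in untreated controls. It rose by 0.72 ± 0.17 (1.65-fold, adjusted p = 0.0107), without overlap, and held with any of the 6 arrays left out. Fen1, the flap endonuclease, was 8.54, 8.75 and 8.63 against 9.11, 9.33 and 9.63. It fell by 0.72 ± 0.17 (adjusted p = 0.00878), and without untreated control 3 the difference of -0.58 did not pass (adjusted p = 0.053). The direction of Fen1 rests on the probe set: the other one, dimmer by mean, differed by 0.63 in Ha-ras tumours (adjusted p = 0.0514) and rose by 0.64 in Ctnnb1 tumours (adjusted p = 0.0233). The probe set used is of a kind (x_at) that can share sequence with other transcripts. Ung, uracil-DNA glycosylase, differed by -0.25 and -0.51 and did not pass.

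Chaf1b, a subunit of the histone chaperone CAF-1, was 5.26, 5.41 and 5.31 in Ha-ras tumours against 4.62, 4.72 and 4.81 in untreated controls. It was between 5.02 and 5.47 in Ctnnb1 tumours, with a median of 5.20, against 4.94, 5.00 and 4.98. Tumours lay above their own controls without overlap in both pairs. Chaf1b rose by 0.61 ± 0.11 in Ha-ras tumours (1.53-fold, adjusted p = 0.00176) and held with any array left out. In Ctnnb1 tumours the difference of 0.26 did not pass (adjusted p = 0.0895). Uhrf1, which guides DNA methylation to the new strand, was between 4.99 and 6.22 in Ctnnb1 tumours, with a median of 5.60, against 4.36, 4.56 and 5.33. It rose by 0.90 ± 0.26 (1.87-fold, adjusted p = 0.0368), and by 1.19 without phenobarbital control 6. The call ended without control 4 or 5 or Ctnnb1 tumour 1, 3, 4, 6 or 7, with adjusted p up to 0.151. In Ha-ras tumours Uhrf1 differed by 0.79 without passing (adjusted p = 0.113).

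**Figure D3:**
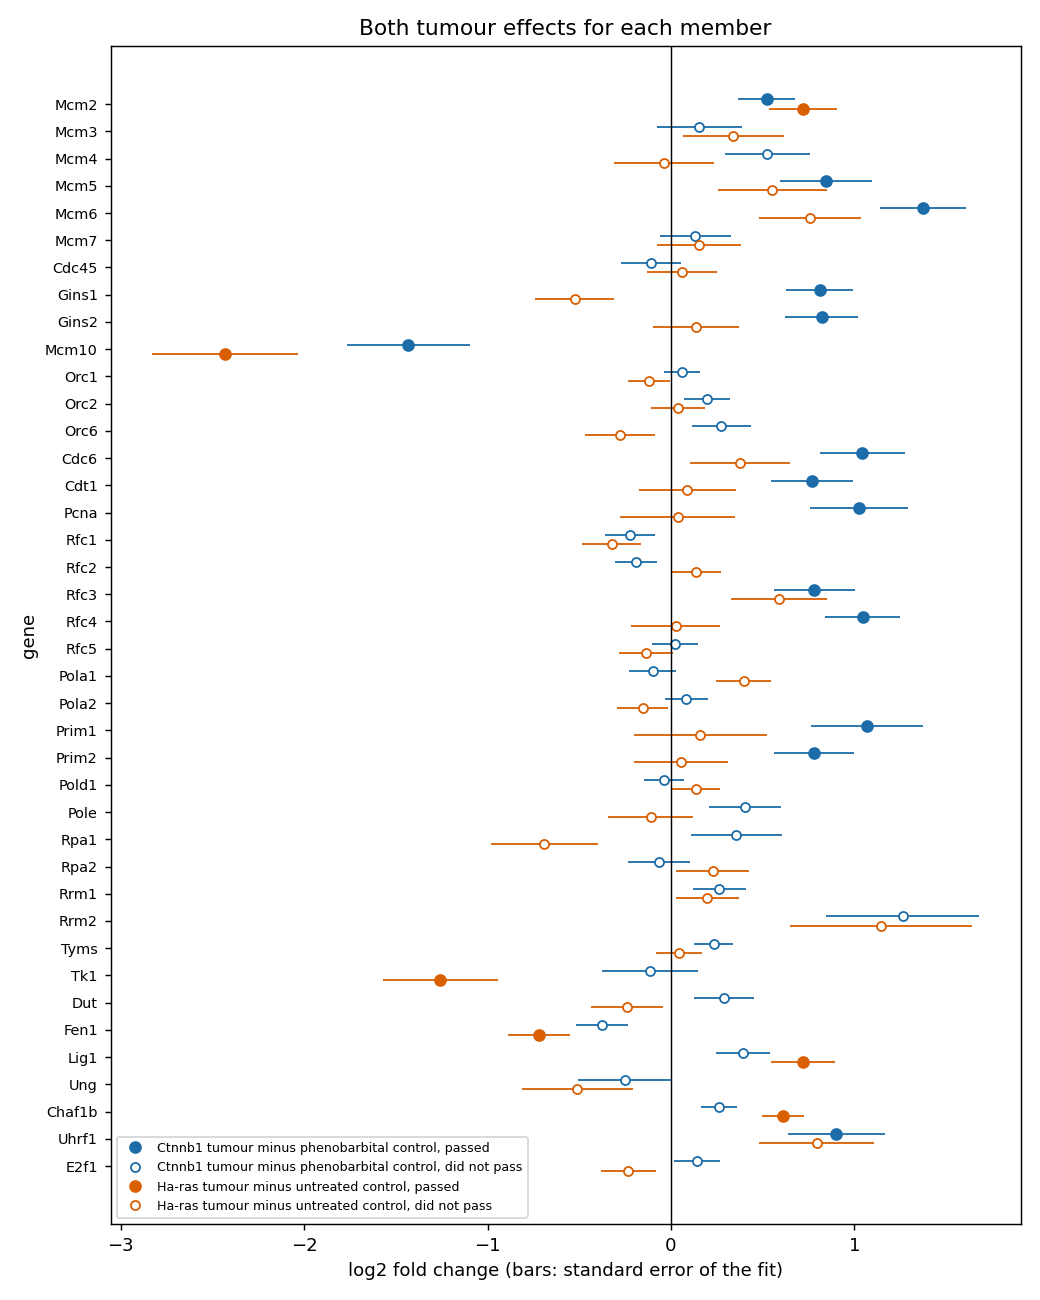
Each row is 1 of the 40 genes, with the log2 fold change on the horizontal axis for Ctnnb1 tumours against phenobarbital controls and Ha-ras tumours against untreated controls. Points are estimates, filled where the adjusted p was under 0.05, and bars are the standard error of the fit. With all arrays, as plotted, Mcm6 has the largest rise in Ctnnb1 tumours at 1.38, and Mcm10 the largest fall in both.

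Whether the genes changed more in one tumour kind than in the other was tested directly, as the difference of both changes. Of the 40 genes 1 passed, or 2.5%, against 5.43% of all genes (2.14% higher and 3.29% lower). Without adjustment 10 of the 40 had a p under 0.05, a limit for which no share of all genes was counted. The gene that passed was Gins1, whose change was higher in Ctnnb1 tumours by 1.34 ± 0.28 (2.52-fold, adjusted p = 0.0103). It passed with any of the 16 arrays left out, between 1.18 and 1.47. The untreated controls were also higher in Gins1 than the phenobarbital controls, by 0.56 in the fit (phenobarbital minus untreated -0.56, adjusted p = 0.267), and that difference enters the value. Rfc4 came next by adjusted p (1.02 ± 0.32, adjusted p = 0.0767). For the other 12 genes that rose in Ctnnb1 tumours the difference did not pass with all arrays and the probe sets used. With another probe set of Cdt1 the difference between the tumour kinds passed with all arrays (1.06, adjusted p = 0.0395). Without phenobarbital control 6 it passed for Cdt1 (1.09, adjusted p = 0.0135) and for Rpa1 (1.48, adjusted p = 0.00561), and without phenobarbital control 5 for Rfc4 (1.24, adjusted p = 0.031). Cdt1 and Rpa1 also passed with the difference between the Gapdh ends in the fit, at 1.18 (adjusted p = 0.00986) and 1.57 (adjusted p = 0.0057). The Gapdh difference stands out in phenobarbital control 6 alone, so that fit is no separate check on leaving this array out. With arrays weighted by their quality Cdt1 and Rpa1 passed as well, with Tk1 (1.38, adjusted p = 0.0394).

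Set directly against each other, with phenobarbital differing too, Ctnnb1 tumours were higher than Ha-ras tumours for 7 of the 40 genes and lower for 1. Over all genes 7.21% were called higher and 7.9% lower. The groups did not overlap for 9 genes higher and 1 lower, against 7.6% and 8.57% of all genes. Rpa1 was higher by 1.42 ± 0.25 (2.68-fold, adjusted p = 0.000806), Mcm6 by 1.27 ± 0.23 (2.41-fold, adjusted p = 0.00135) and Orc6 by 0.75 ± 0.16 (1.68-fold, adjusted p = 0.00429). These 3 calls held with any of the 10 arrays left out. The values of Orc6 were 6.09 to 6.81 in Ctnnb1 tumours, with a median of 6.51, and 5.78, 5.59 and 5.97 in Ha-ras tumours, without overlap. Gins1 (0.77), Cdt1 (0.86), Mcm4 (0.81) and E2f1 (0.41) were higher as well, and Pola1 was lower by 0.51 ± 0.13 (adjusted p = 0.0114). Without Ha-ras tumour 1 the calls of Gins1, Cdt1, Mcm4 and Pola1 ended, with adjusted p between 0.0748 and 0.0951, and without Ha-ras tumour 2 those of Cdt1 and Mcm4 (0.063 and 0.124).

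E2f1, a transcription factor that drives many S-phase genes, was between 6.06 and 6.63 in Ctnnb1 tumours, with a median of 6.34, and 6.02, 5.94 and 5.85 in Ha-ras tumours. The tumour kinds did not overlap. Its difference of 0.41 ± 0.13 (1.32-fold, adjusted p = 0.039) was lost in 7 of 10 runs that left out 1 array, namely without Ctnnb1 tumour 3, 4, 6 or 7 or any Ha-ras tumour, with adjusted p up to 0.133. Against their own controls E2f1 differed by 0.14 in Ctnnb1 and -0.23 in Ha-ras tumours and did not pass.

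Control livers with and without phenobarbital gave no call among the 40 genes, where limma called 0.214% of all genes (0.132% higher, 0.0824% lower). DEN dose and age per sample were not given, so these may differ between the control groups as well. There were 6 of the 40 with an unadjusted p under 0.05: Mcm6 (0.65), Mcm7 (0.59), Lig1 (0.51) and Chaf1b (0.26) higher under phenobarbital, and Rfc4 (-0.66) and Gins1 (-0.56) lower. The groups did not overlap for these 6 and for Mcm10 (-0.63), so that 4 of the 40 genes lay wholly above and 3 wholly below, against 9.4% and 9.44% of all genes. Without phenobarbital control 6 the difference was 0.41 for Mcm6, 0.56 for Mcm7, 0.39 for Lig1 and 0.26 for Chaf1b. It was -0.31 for Rfc4, -0.42 for Gins1 and -0.79 for Mcm10, so that the value of Rfc4 moved most of these 7, and again no gene of the 40 passed.

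The promoter letters can be set beside these calls as a description. Of the 12 measured genes with E2F letters in the window, 6 rose in Ctnnb1 tumours (Cdc6, Cdt1, Mcm5, Mcm6, Rfc3, Uhrf1), and their median log2 fold change was 0.58. Of the 22 with a promoter and no such letters, 4 rose and 1 fell, with a median of 0.21. In Ha-ras tumours 1 of the 12 rose (Lig1), and 2 of the 22 rose and 3 fell. The CCAAT letters were in 24 of the 41 promoters of listed genes (58.5%) against 37.4% of all promoters. The letters TTTGAA, part of an element known from mitotic genes, were in 3 (7.32%) against 17.9%.

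Over the arrays, the mean of the 40 genes was 6.86 to 7.35 in Ctnnb1 tumours, 6.69 to 6.87 in phenobarbital controls, 6.68 to 6.82 in Ha-ras tumours and 6.67 to 6.81 in untreated controls. The mean of phenobarbital control 6 (6.87) reached that of Ctnnb1 tumour 5 (6.86), and the other Ctnnb1 tumours lay above all controls and Ha-ras tumours. Tumour 4 was the highest of the 7 for 15 of the 40 genes and tumour 5 the lowest for 11, and their means were the group's highest and lowest. Across the groups, genes of mitosis followed another order. Among the Ctnnb1 tumours, tumour 4 again had the highest mean (7.26), and tumour 3 had the lowest (5.97). A list of 16 measured mitosis genes had means of 5.97 to 7.26 in Ctnnb1 tumours, 5.77 to 7.28 in Ha-ras tumours, 5.08 to 5.45 in phenobarbital controls and 4.68 to 5.22 in untreated controls. Ha-ras tumour 2 had the highest mitosis mean of all arrays and the highest Mki67 value (8.79), while its mean over the replication genes was 6.78, within the range of the controls.

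The mitosis list rose in both tumour kinds, with 14 of 16 genes passing in Ctnnb1 tumours (median 1.53) and 10 of 16 in Ha-ras tumours (median 1.37), none lower. Examples were Ccnb2, a cyclin of mitotic entry, which rose by 2.27 and 2.58, and Cdk1, its kinase, which rose by 1.71 and 1.33. For none of the 16 did the difference between the tumour kinds pass (2 at an unadjusted p under 0.05). The replication genes had 13 of 40 and 3 of 40 higher in the same comparisons.

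**Figure D4:**
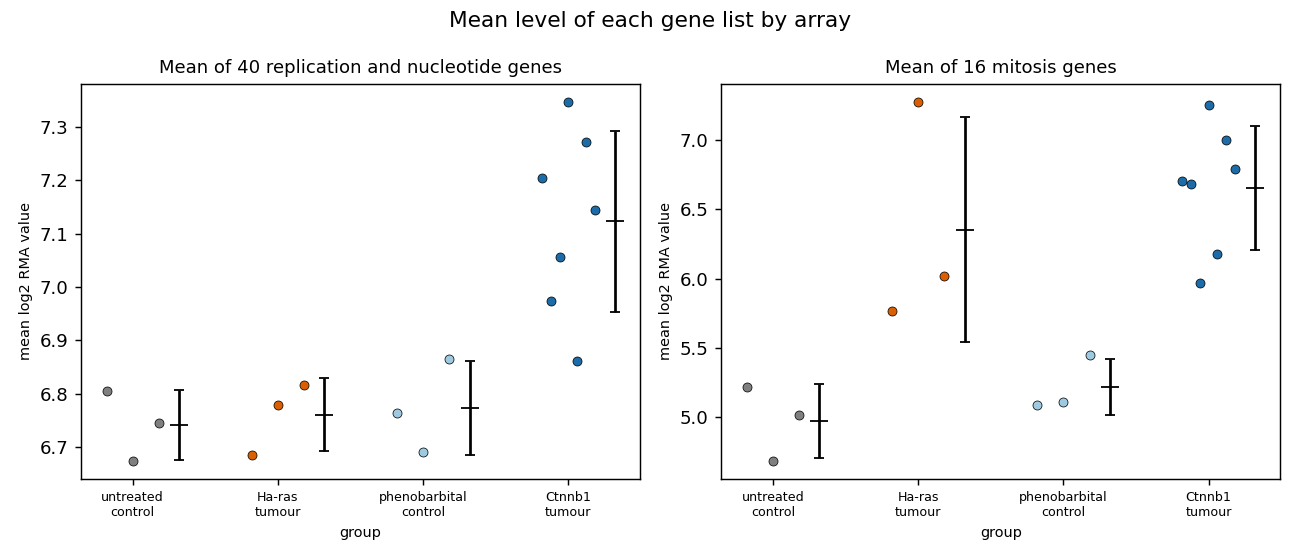
The mean log2 RMA value of each gene list is plotted on the vertical axis for each array as a point, with the 4 groups on the horizontal axis and bars for the group mean and SD. Ctnnb1 tumours have the highest means of the replication genes, up to 7.35, while the mitosis means of Ha-ras tumours, up to 7.28, reach those of Ctnnb1 tumours.

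Across the 16 arrays, which share the 4 groups, the genes moved together only in part. Of 780 pairs 531 had a Pearson correlation above 0, and the median was 0.24. Mcm5 and Mcm6 followed the mean of the other genes most closely (both 0.92), and 25 of the 40 were above 0.5. Mcm10 was at -0.49. Outside the list, the genes most like the centred mean of the 40 were Acox2, a peroxisomal oxidase of bile acid synthesis (0.919), Chek1, the checkpoint kinase of stalled forks (0.913), Ube2t, a ubiquitin-conjugating enzyme of crosslink repair (0.907), Plk4, the kinase of centriole duplication (0.899), and Iqgap3 (0.895). They were chosen for following that mean over the same 16 arrays, and the mean is higher in Ctnnb1 tumours, so their differences there of 0.64, 0.73, 1.30, 1.01 and 0.72 are a description.

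Most partner genes outside the list did not pass in either tumour kind. Of 16 partners in origin licensing and firing, 2 rose in Ctnnb1 tumours, Topbp1 (0.58 ± 0.12), which activates the checkpoint kinase ATR, and Mcm8 (0.75 ± 0.21), and none passed in Ha-ras tumours (1 at an unadjusted p under 0.05). Of 23 polymerase and fork partners, 5 rose in Ctnnb1 tumours, among them Top2a (1.86 ± 0.29), a topoisomerase, and Pold2 (0.64 ± 0.13) and Pold4 (1.24 ± 0.26), small subunits of polymerase delta. In Ha-ras tumours 3 rose and 1 fell, with Pold4 at 2.84 ± 0.31 and Timeless, a fork protection factor, at 1.01 ± 0.21. Pold4 rose more in Ha-ras tumours (difference -1.61, adjusted p = 0.0279), and Pold2 more in Ctnnb1 tumours (0.82, adjusted p = 0.0285).

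Of 13 deoxynucleotide partners, Ctps2, a CTP synthase, rose in both tumour kinds (1.51 ± 0.22 and 1.99 ± 0.26), and Cmpk1 in Ha-ras tumours (0.37 ± 0.12). Of 14 genes of purine and pyrimidine synthesis, 2 rose and 2 fell in Ctnnb1 tumours and 2 fell in Ha-ras tumours. Adss, of the AMP branch, rose by 1.11 ± 0.15 in Ctnnb1 tumours, and Paics, of the common purine route, fell by 0.80 ± 0.14 and 0.60 ± 0.17. Of 10 folate genes, 1 rose and 2 fell in Ctnnb1 tumours, and 1 rose and 3 fell in Ha-ras tumours. Aldh1l1, a formyltetrahydrofolate dehydrogenase, fell by 0.98 in both, and Aldh1l2, its mitochondrial relative, rose by 2.06 ± 0.51 in Ha-ras tumours.

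Among 18 E2F and RB regulators, 1 rose and 1 fell in Ctnnb1 tumours, and 4 rose and 2 fell in Ha-ras tumours. Rbl1, the RB relative p107, rose by 1.56 ± 0.21 and 1.23 ± 0.25. Ccna2 (1.98 ± 0.45), Ccne1 (0.59 ± 0.16) and E2f3 (0.93 ± 0.18) rose in Ha-ras tumours. The repressor E2f8 fell by 1.44 ± 0.25 in Ha-ras tumours, and its change was higher in Ctnnb1 tumours by 1.87 ± 0.32 (adjusted p = 0.00226). The related repressor E2f7 fell by 1.01 ± 0.28 in Ctnnb1 tumours. Of 11 chromatin copying partners none passed in Ctnnb1 tumours, where 5 had an unadjusted p under 0.05 and the range was -0.38 to 0.62, and 2 rose and 1 fell in Ha-ras tumours.

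Markers of other liver cells moved beside these genes. The mean of 10 macrophage markers was 8.03 to 8.87 in Ctnnb1 tumours against 8.71 to 9.33 in phenobarbital controls, and 6.73 to 8.93 in Ha-ras tumours against 8.54 to 9.41 in untreated controls. In Ha-ras tumours 4 of the 10 fell (Clec4f, Cd5l, Timd4, Vsig4), and in Ctnnb1 tumours 1 did (Clec4f). Of 8 stellate and fibroblast markers 4 fell in Ctnnb1 and 3 in Ha-ras tumours. Of 7 hepatocyte markers, Cps1 and Tat fell in Ctnnb1 tumours. Ighm, of B cells, rose by 2.19 ± 0.60 in Ctnnb1 tumours, and it was the only 1 of 9 lymphocyte markers that passed. The 4 neutrophil markers gave no call, but their mean was 8.01 in Ctnnb1 tumour 1 and at most 6.84 in the other Ctnnb1 tumours. The part of these cells in the values of the replication genes was not tested.

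Different probe sets of a gene did not always give the same answer, and 32 of the 40 genes had more than 1. Rrm1 did not pass with the probe set used (0.26), but another one rose by 1.36 in Ctnnb1 tumours (adjusted p = 0.00243). Gins2 had a second probe set that rose by 1.38, and Cdt1 one that rose by 0.73. Mcm6 had another that rose by 1.29 and a dim one that differed by 0.07. Fen1 turned its sign between its probe sets in both tumour kinds, as given above. Other genes that passed had a probe set that did not. In Ctnnb1 tumours these were Prim1 (0.54, adjusted p = 0.162), Rfc4 (0.37, adjusted p = 0.286), Prim2 (0.06 and -0.20) and, with dim probe sets, Gins1 (0.16, adjusted p = 0.528), Cdt1 (-0.10) and Mcm5 (-0.02). In Ha-ras tumours Chaf1b had 1 that differed by 0.05 (adjusted p = 0.872). The difference between the tumour kinds for Gins1 was 0.22 with its dim probe set (adjusted p = 0.679). With the tumour kinds set directly against each other, another probe set passed for Rpa1 (1.25), Mcm6 (1.25) and Cdt1 (0.73). Those of Mcm4 (0.41, adjusted p = 0.612) and E2f1 (0.37 and 0.06) did not pass. Dim probe sets of Pola1 (-0.06), Gins1 (0.21), Mcm6 (0.27) and Cdt1 (0.08) did not pass either. Mcm3 did not pass with the probe set used (0.14), but another one was higher in Ctnnb1 tumours (0.72, adjusted p = 0.0314). The remaining probe sets of Mcm3 did not pass.

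**Figure D5:**
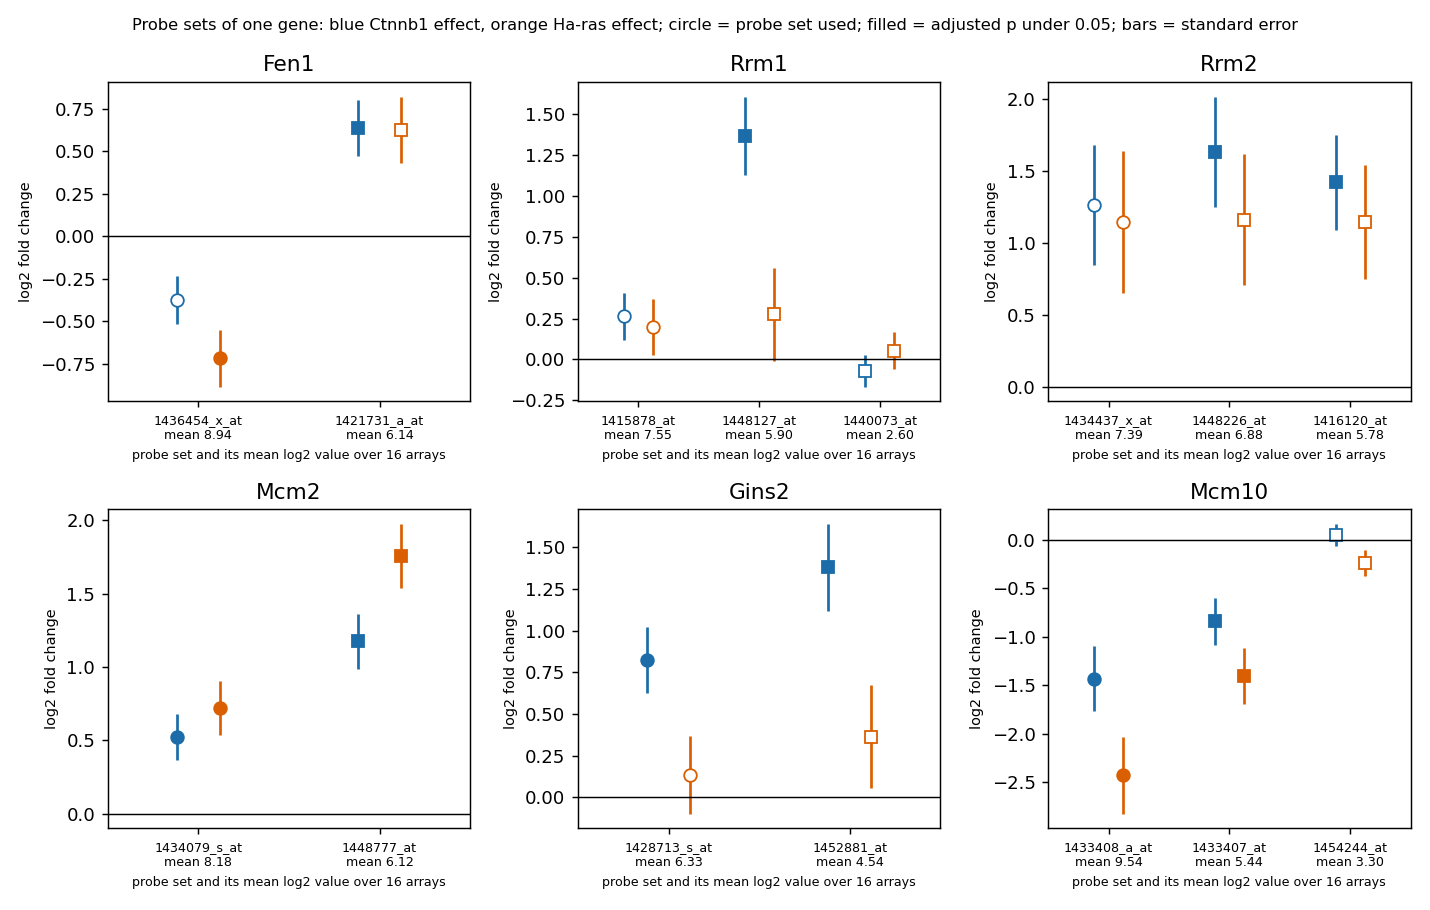
Each panel is a gene and each position on the horizontal axis 1 of its probe sets, with its mean log2 value over 16 arrays. The vertical axis gives the log2 fold change for both tumour kinds, bars are the standard error, filled points passed, and circles mark the probe set used. Both Fen1 probe sets lie on opposite sides of 0, at -0.37 and 0.64 in Ctnnb1 tumours.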

How the data were processed

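RNA of 16 mouse liver samples was hybridised to Affymetrix mouse expression arrays. The authors deposited log2 values per probe set, with RMA and R 2.14.1 named in the submitters' processing notes. The genome build was not given in the sources used here. Levels of different probe sets are not compared, and low values may be background.

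Of 45101 probe sets, 64 were controls, 34958 had 1 gene symbol, 932 several and 9160 none. Of those with 1 symbol, 34754 matched RefSeq by Entrez identifier and 0 were renamed. The probe set with the highest mean was kept per gene, giving 18194 genes. limma 3.58.1 in R 4.3.3 was fitted to all 16 arrays with 1 coefficient per group and eBayes, with no block, and 5 comparisons were drawn, adjusted by Benjamini-Hochberg over all genes at 0.05. The fit was tested on simulated data. The number of arrays limits the precision. Counts at an unadjusted p under 0.05 cover the gene lists alone, without a share of all genes beside them.

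The genes and lists, and the alternatives, were chosen with earlier results of these data known. Every gene of the list could be named. Of each other list up to 5 passing genes with the largest change, and up to 2 against most, could be named in each comparison, with the 5 genes most like the mean of the list. Alternatives were each array left out, other probe sets and summaries, normalizations, weights, blocks, covariates and subsets of arrays. Promoter sequences are from RefSeq (GRCm38.p6).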

Additional observations from a re-analysis of the deposited data

Results flagged for a closer look

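Over the 7 Ctnnb1 tumours each of the 40 genes was examined for a single tumour far from the rest, by the ratio of the gap to the range (Dixon's test at the 95% level). Chance gives about 1 in 20 such cases, and 2 were found. Mcm10 was 10.35 in Ctnnb1 tumour 3, with the next tumour at 9.15 and a ratio of 0.579. Rfc1 was 7.62 in Ctnnb1 tumour 7, with the next tumour at 7.92 and a ratio of 0.626. The change of Gins1 differed between the tumour kinds, by 1.34 on the log2 scale in the test of the difference itself.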

How the results depend on the processing

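For Ctnnb1 tumours the count of 14 genes became 6 with the Gapdh gap as a covariate, 7 with only the arrays compared, 9 without phenobarbital control 6 and Ctnnb1 tumours 6 and 7, and 7 to 16 with 1 array left out. For Ha-ras tumours the count of 6 became 10 with array weights, which added Gins1, Mcm6, Rfc1 and Rpa1, and 4 to 6 with 1 array left out. For the difference of the changes the count of 1 became 3 with the covariate, 4 with weights, 3 without those 3 arrays and 1 to 3 with 1 array left out. Between tumour kinds the count of 8 became 13 with the covariate, 14 with weights and 3 to 10 with 1 array left out. The count between control groups was 0 in every alternative run, with 6 genes at an unadjusted p under 0.05 in the limma fit reported. Over all genes the Ctnnb1 count of 2191 became 836 with the covariate, 1492 with only the arrays compared, 1383 without the 3 arrays, and 1337 without phenobarbital control 6. With array weights the count over all genes rose from 2462 to 3776 for Ha-ras tumours. For the difference of the changes it rose from 988 to 1547 with weights. Between tumour kinds it rose from 2750 to 3757, and between control groups from 39 to 244. For Ctnnb1 tumours it was 2153 with weights. With the covariate it was 799 for the difference of the changes and 3272 between tumour kinds. Gains with weights were therefore not confined to the listed genes. The causes were not tested.

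The labels give replicate numbers shared by tumours and controls. Deviations of same-numbered arrays correlated at 0.13, 0.087 and -0.12 for Ctnnb1 and 0.030, 0.40 and 0.24 for Ha-ras. Ha-ras 2 and 3 alone correlated best with their own number. So few values cannot settle whether same-numbered samples were paired. With a fixed replicate block the count was 5 for Ctnnb1 tumours, where over all genes it was 802, 7 for Ha-ras tumours and 1 for the difference. With a random replicate block no count among the 40 genes changed. A fixed block could not be fitted for the other comparisons.

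Among genes that passed in either run, directions turned with the probe set for Fen1, Cdt1, Mcm10, Mcm5 and Prim2. For Fen1 the other probe set, also the one with the highest variance, gave 0.64 in Ctnnb1 and 0.63 in Ha-ras tumours. In Ctnnb1 tumours other probe sets gave -0.10 (Cdt1), 0.054 (Mcm10), -0.024 (Mcm5) and -0.20 (Prim2), and none of those 4 passed. Sign changes without any call occurred too, as for Cdc45 (-0.11 and 0.28) and Rpa2 (-0.07 and 0.44) in Ctnnb1 tumours. Of the alternatives for single genes, 3911 passed in both runs, or in neither with a move within the standard error. The call was lost in 123 and gained in 70. Another 298 passed in neither run and moved by more than the standard error. In 8 the direction turned and the gene passed in either run. Turns of direction in genes that passed in neither run are not counted among the 8. With 3 arrays in 3 of the groups, the number of arrays limits what could be detected.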
